A study of Mus musculus with 9 samples.

Results

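Fragments of the glutamine transfer RNAs (tRNAs) in mouse blood serum were taken from a study of salvianolic acid B (SalB), which is found in danshen root and is rich in phenol groups, in atherosclerosis. They comprise every read whose alignments all lie on mature references of the anticodons Gln-CTG or Gln-TTG. In all, 1653 of the 41240 distinct read sequences met this rule, with 20693 of 555585 reads. Of these, 1030 sequences (16001 reads) aligned to Gln-CTG references only, 152 sequences (1217 reads) to Gln-TTG references only, and 471 sequences (3475 reads) to both. Reads on precursor tRNAs (185 reads on Gln precursors), on mitochondrial tRNA-Gln (205 reads) and on a Gln and another amino acid's tRNA at once (39 reads) were left out by the rule. The libraries were made from total RNA of serum at week 20, from mice on a high fat diet with SalB, on a high fat diet alone and on a normal diet, with 3 libraries each. The titles of the normal diet libraries carry the strain name C57 and those of the other groups do not, so diet and strain cannot be told apart in a comparison with normal diet. The sources used here give no dose, route, sex or starting age. No label ties replicates to different animals, so the p-values rest on a spread between libraries that may be technical. The files hold tRNA reads only, so no cell type markers could be checked, and in such a bulk sample fewer releasing cells and less RNA per cell cannot be told apart.

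Glutamine tRNAs carry glutamine to the ribosome, the CUG anticodon reading CAG codons and the UUG anticodon reading CAA codons. Mature tRNAs end in a CCA tail that is added after transcription and holds the amino acid, and they can be cut into stable fragments. Fragments that reach into the CCA tail (positions 73 to 75), most of them cut in the T loop, are called 3′ fragments here, those that start at the first base are called 5′ fragments, and those cut at both sides are called internal. An adenosine of the T loop is methylated in many tRNAs, and such a base can make reverse transcriptase stop or insert another base. Short 5′ fragments of tRNA-Gln have been reported to bind the aminoacyl-tRNA synthetase complex in human cells.

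The references that most reads met are shown to place the cuts, with the anticodon (positions 34 to 36) and the T-loop adenosine (position 57) in capitals. They are written in DNA letters, 5′ to 3′, as rebuilt from the deposited alignments, and positions are counted from 1 at the first base, with the CCA tail at 73 to 75.
Gln-CTG-2-1: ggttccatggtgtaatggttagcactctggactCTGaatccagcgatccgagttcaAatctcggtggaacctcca
Gln-CTG-3-1: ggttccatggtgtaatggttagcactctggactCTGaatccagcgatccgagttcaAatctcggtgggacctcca
Gln-TTG-1-1: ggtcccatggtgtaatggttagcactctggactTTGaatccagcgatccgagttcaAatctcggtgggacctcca
With the base of Gln-CTG-2-1 given first, Gln-CTG-3-1 differs from it by A68G, and Gln-TTG-1-1 by T4C, C34T and A68G. The A at position 68 stands in Gln-CTG-2-1 and in no other Gln reference that reads covered there, so that a read across it could be assigned to 1 tRNA, while a 3′ read with G there could come from several Gln-CTG or Gln-TTG tRNAs. Reads that met Gln-CTG-2-1 alone numbered 12376, or 59.8% of all Gln reads, and 12153 of them were 3′ fragments. RefSeq lists 16 nuclear Gln tRNA genes of 72 bases in GRCm38.p6 (mm10). Of these, 10 have the anticodon CTG (4 on chromosome 3, 4 on chromosome 13, 1 on chromosome 9 and 1 on chromosome 11) and 6 have TTG (3 on chromosome 13, 2 on chromosome 11 and 1 on chromosome X). Which of these genes carries which reference name was not matched.

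The fragments that the results turn on are named by family and by first and last position. A fragment of both families carries both names.
Gln-CTG 59-75: tctcggtggaacctcca
Gln-CTG 58-75: atctcggtggaacctcca
Gln-CTG 60-75: ctcggtggaacctcca
Gln-CTG 54-75: tcaAatctcggtggaacctcca
Gln-CTG/Gln-TTG 59-75: tctcggtgggacctcca
Gln-CTG/Gln-TTG 16-30: tggttagcactctgg
Gln-CTG/Gln-TTG 17-30: ggttagcactctgg
Gln-CTG/Gln-TTG 17-31: ggttagcactctgga
Gln-CTG 25-41: ctctggactCTGaatcc
Gln-CTG 27-54: ctggactCTGaatccagcgatccgagtt
Gln-CTG/Gln-TTG 35-54: TGaatccagcgatccgagtt
The first 3 are 3′ fragments of 17, 18 and 16 bases that begin just after the T-loop adenosine, and the next is a 3′ fragment of 22 bases that holds it. The set from 16 or 17 to 30 or 31 runs from the D loop into the anticodon arm, and the last 3 cross all or part of the anticodon.

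Total tRNA reads ran from 28191 (high fat diet replicate 2) to 156333 (SalB replicate 2), and Gln reads from 993 (SalB replicate 3) to 4958 (normal diet replicate 3). SalB replicate 2 stood apart from the other libraries: reads on 1 precursor, Leu-CAG-3-1, made up 41.7% of it and at most 2.53% of any other library, and its scaling factor was 0.471, the lowest of the 9. Calls lost or gained and directions turned without it are given for most of the fragments and sums described, mainly for SalB against high fat diet. Levels of single fragments are RPM (reads of the fragment relative to the scaled total of tested reads in its library), and log2 fold changes and their adjusted p-values are from limma-voom fitted over all tested features and all 9 libraries.

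Glutamine fragments made up a smaller part of the tRNA reads with SalB. They were 1.74%, 2.07% and 2.47% of tRNA reads in the SalB libraries, 5.01%, 5.29% and 4.96% in the high fat diet libraries, and 5.88%, 4.58% and 5.23% in the normal diet libraries. All 3 SalB values lay below all 6 others, and the high fat diet values lay within the range of the normal diet values. The 95% Wilson intervals, which cover counting error only, reached at most 2.63% in a SalB library and began at 4.35% or above in the others. The exact two-sided permutation test for SalB against high fat diet gave p = 0.1, the smallest that 3 against 3 allows, and the Benjamini-Hochberg value over all 93 tests of shares was 0.216. Without the Leu-CAG-3-1 precursor reads, the Gln share was 1.79%, 3.55% and 2.48% in the SalB libraries. As a share of nuclear mature tRNA reads, which leaves out precursor and mitochondrial reads, Gln reads were 3.72% ± 1.10 with SalB, 5.64% ± 0.24 on high fat diet and 5.79% ± 0.71 on normal diet (SD, n = 3 each). In this measure the SalB libraries had 2.75%, 4.91% and 3.51%, so replicate 2 came close to the 5.07% of normal diet replicate 2.

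Summed over all its reads, Gln fell by 1.08 on the log2 scale with SalB against high fat diet (SE 0.219, limma-voom adjusted p = 0.00342). Of the 56 amino acid sums tested, 28.6% passed at 0.05 in that comparison. Over the 20 alternatives of scaling, filter and libraries the fold change of Gln ran from -1.39 to -0.81, and the adjusted p from 8.96e-05 to 0.0506, the highest being without high fat diet replicate 1. Without SalB replicate 2 the fold change was -1.39. Against normal diet Gln fell by 1.18 (SE 0.214, adjusted p = 0.00157 by limma-voom), where 33.9% of the amino acid sums passed. High fat diet against normal diet gave -0.10 (SE 0.207, limma-voom adjusted p = 0.986), where 0% of the sums passed. These comparisons share libraries, so they are not independent of each other.

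**Figure D1:**
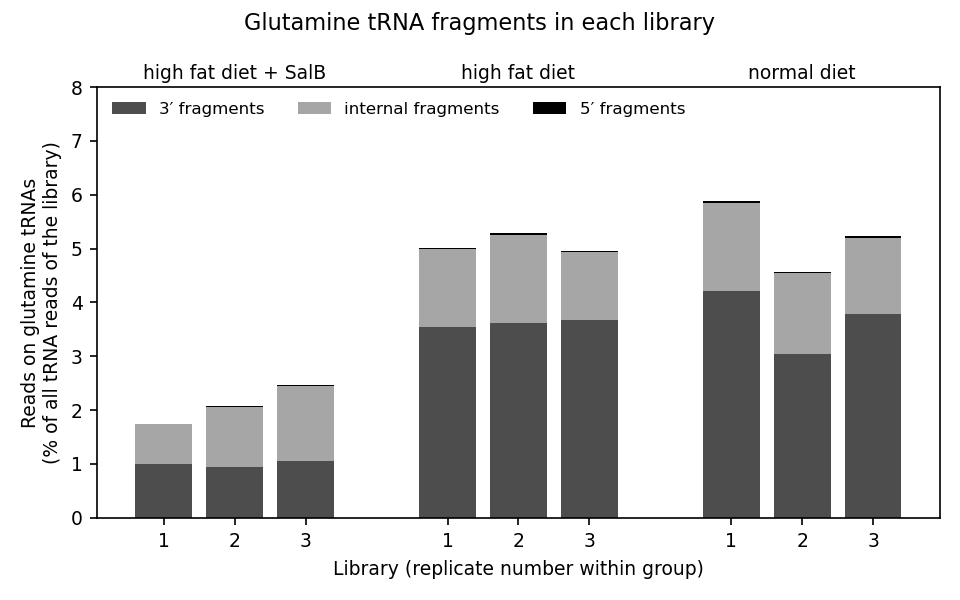
Reads on glutamine tRNAs in each of the 9 libraries as a percentage of all tRNA reads of that library (bars from 0), split into 3′, internal and 5′ fragments. The SalB libraries reach 1.74% to 2.47%, with a smaller 3′ part than in the other libraries, while 5′ fragments are hardly visible in any library.

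The composition of the Gln reads differed as well. Fragments that reach into the CCA tail, whether or not they hold its last base, were 57.3%, 45.6% and 42.5% of Gln reads in the SalB libraries, 70.8%, 68.3% and 73.9% in the high fat diet libraries, and 71.5%, 66.4% and 72.2% in the normal diet libraries. The SalB group averaged 48.5% ± 7.79, high fat diet 71.03% ± 2.79 and normal diet 70.0% ± 3.20 (SD, n = 3 each), and no SalB value reached any other value (exact permutation p = 0.1 against either group, the smallest possible, Benjamini-Hochberg 0.216). Internal fragments made up the difference, at 51.0% ± 7.60 with SalB, 28.4% ± 2.70 on high fat diet and 29.3% ± 3.07 on normal diet. These internal fragments include reads that equal part of a microRNA, described below with Gln-TTG. Such reads were 5.26%, 9.86% and 4.23% of Gln reads in the SalB libraries, 2.78% ± 0.53 on high fat diet and 3.18% ± 0.78 on normal diet, so part of the difference may be microRNA. The split is one of reads: counted over distinct sequences in place of reads, the SalB value lay 7.74 percentage points below high fat diet, against 22.6 points when reads were counted.

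The sum of 3′ fragments fell and that of internal fragments did not pass. The 3′ sum fell by 1.67 on the log2 scale with SalB against high fat diet (SE 0.226, limma-voom adjusted p = 0.000907), in a table of 93 sums by amino acid and origin of which 30.1% passed. Over 19 alternatives this fold change stayed between -1.85 and -1.54 and past the threshold. The internal sum, which includes the reads that equal a microRNA, had a log2 fold change of -0.27 (SE 0.284, limma-voom adjusted p = 0.551) and was not called, also without SalB replicate 2 (-0.45). Against normal diet the 3′ sum fell by 1.75 (limma-voom adjusted p = 0.000829, 39.8% of the sums passed) and the internal sum had a fold change of -0.42 that missed the threshold (limma-voom adjusted p = 0.270). High fat diet against normal diet gave -0.09 for the 3′ sum and -0.15 for the internal sum, neither called (limma-voom adjusted p = 0.929 and 0.860), and 0% of the sums passed there.

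Of the 1653 Gln sequences, 32 had enough reads to be tested, and they hold 65.6% of the Gln reads. The filter keeps a sequence with enough reads in any 3 libraries, so the 32 are not the whole family: 899 sequences were seen as 1 read in all. Some fragments were kept only through the groups where they are high, so the counts of falls and rises depend in part on the filter. With SalB against high fat diet 14 of the 32 fell and 1 rose, 17 did not pass, and the median log2 fold change was -1.35. Among all 733 fragments tested, 34.2% passed (17.6% higher and 16.6% lower) and the median was -0.15. The groups did not overlap for 17 of the 32, where 50.1% of all 733 fragments had no overlap. The count depended on single libraries: 7 fragments passed without SalB replicate 2 (7 fell and 0 rose), 8 without SalB replicate 3 and 9 without high fat diet replicate 1 or 3. Scaling to total counts moved the median of all 733 by -0.69, and 18 Gln fragments then fell and 0 rose. By position, 7 of 17 3′ fragments fell and none rose, and 7 of 15 internal fragments fell and 1 rose. None of the internal fragments that fell reached the filter level in any SalB library. They were tested only through the diet libraries, where they are higher, so their count depends on the filter.

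The most abundant 3′ fragment, Gln-CTG 59-75, had 4664, 5477 and 4087 RPM in the SalB libraries, 11893, 12102 and 12414 in the high fat diet libraries, and 13734, 9553 and 15156 in the normal diet libraries. Every SalB value was lower than every other value, and the high fat diet values lay within the range of the normal diet values. It fell by 1.36 on the log2 scale with SalB against high fat diet (SE 0.276, limma-voom adjusted p = 0.00446, and at most 0.0215 in 19 alternatives). The fragment 1 base shorter, Gln-CTG 60-75, had 1860, 1157 and 1162 RPM with SalB, 5429, 5856 and 5514 on high fat diet, and 6248, 4435 and 7050 on normal diet. Again no SalB library came near the others, and it fell by 2.03 (SE 0.311, limma-voom adjusted p = 0.00109, at most 0.00700 in 19 alternatives).

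The fragment 1 base longer, Gln-CTG 58-75, did not follow in all libraries. It had 1638, 8994 and 1500 RPM with SalB, 8582, 6897 and 7968 on high fat diet, and 11792, 10320 and 10192 on normal diet. SalB replicates 1 and 3 lay far below the rest, while replicate 2 lay above all 3 high fat diet libraries and below all 3 normal diet libraries. Its log2 fold change was -1.45 (SE 0.538, limma-voom adjusted p = 0.0554), short of the threshold. Without SalB replicate 2, the library that holds the Leu-CAG-3-1 precursor reads, it fell by 2.19 (limma-voom adjusted p = 0.000325, against 2.52e-05 to 0.244 over 19 alternatives). The counterpart with G at position 68, Gln-CTG/Gln-TTG 58-75, had 167, 2479 and 187 RPM with SalB against 631, 521 and 866 on high fat diet, so the same library was the one high value. Its log2 fold change was -0.45 (limma-voom adjusted p = 0.669), and -1.73 without that library (limma-voom adjusted p = 0.05001, just short of the threshold). Gln-CTG/Gln-TTG 59-75 had 416, 1322 and 600 RPM with SalB, 969, 868 and 1126 on high fat diet, and 1295, 853 and 1140 on normal diet. SalB replicate 2 lay above every high fat diet library and replicates 1 and 3 below them all, and unlike its Gln-CTG counterpart it was not called (log2 fold change -0.48, SE 0.416, limma-voom adjusted p = 0.375, and -0.86 without SalB replicate 2).

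The 22-base fragment that holds the T-loop adenosine, Gln-CTG 54-75, did not pass in any comparison. It had 1804, 2502 and 2362 RPM with SalB, 2635, 3167 and 2945 on high fat diet, and 2645, 2729 and 2976 on normal diet. The SalB values were below all others, but by a small step: the log2 fold change was -0.40 (SE 0.277, limma-voom adjusted p = 0.278) against high fat diet and -0.34 (limma-voom adjusted p = 0.337) against normal diet.

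**Figure D2:**
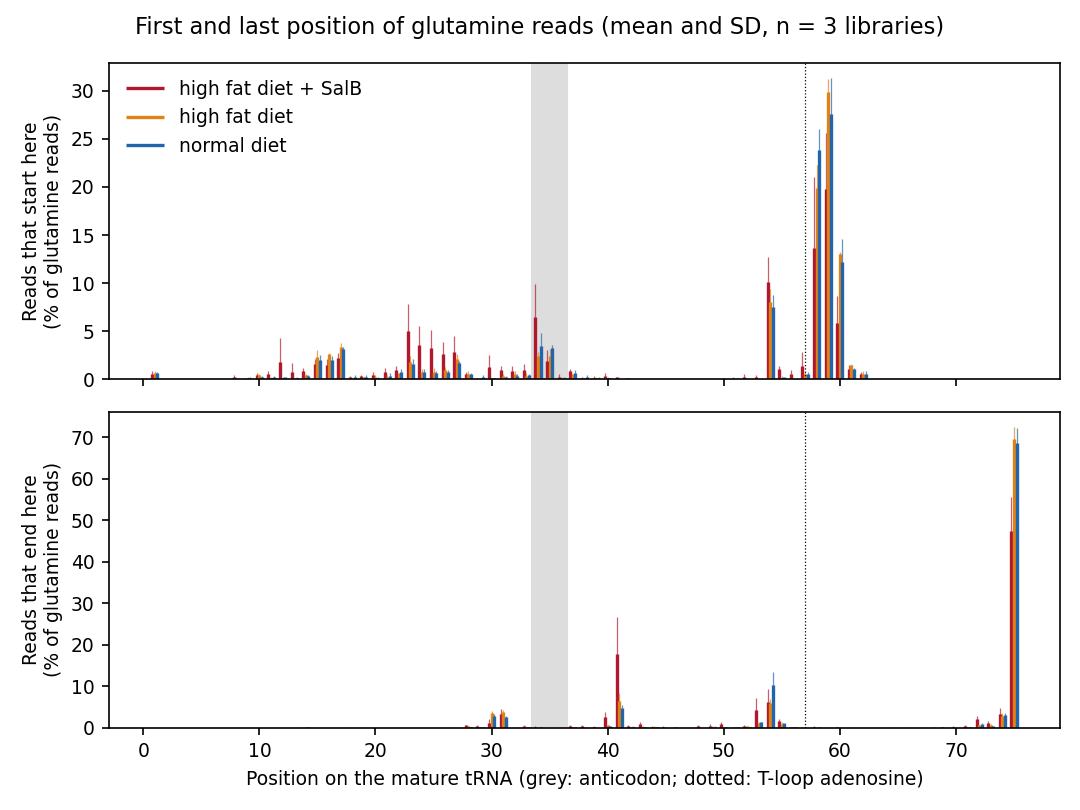
Percentage of Gln reads that start (top) and end (bottom) at each position of the mature tRNA, without the reads that equal a microRNA, as means with SD over 3 libraries per group. Starts cluster at 54 and at 58 to 60, and ends at 75, with smaller clusters of ends at 30 and 31, 41 and 54. The end at 75 is lower with SalB. The mean of the end at 41 is higher with SalB, at 8.08%, 20.5% and 25.0% against 7.58%, 7.74% and 4.17% on high fat diet, so SalB replicate 1 lies close to that group. As a share of internal reads, ends at 41 were 20.6%, 41.9% and 45.8% with SalB and 28.7%, 26.9% and 17.5% on high fat diet, which overlap.

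The cut in the T loop was spread over few positions. Over all libraries 5251 Gln reads began at 59, 4086 at 58, 2177 at 60 and 1544 at 54. Of the 3′ reads, those that began at or before position 57, and so held the T-loop adenosine, were 22.1%, 22.2% and 26.5% with SalB, 9.80%, 13.6% and 11.05% on high fat diet, and 9.07%, 12.5% and 9.41% on normal diet. The SalB values did not overlap the others, and the group means were 23.6% ± 2.54, 11.5% ± 1.962 and 10.3% ± 1.90 in that order (SD, n = 3 each, exact permutation p = 0.1, the smallest possible, Benjamini-Hochberg 0.216). The part that began at 60 was 14.5%, 6.17% and 12.6% with SalB, 17.7%, 18.7% and 17.2% on high fat diet, and 17.4%, 13.9% and 18.9% on normal diet. Starts at 58 took 41.4% of the 3′ reads in SalB replicate 2 but 18.0% and 17.3% in replicates 1 and 3, with 24.4% to 29.8% on high fat diet and 28.2% to 36.8% on normal diet.

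The A that marks Gln-CTG-2-1 stood at position 68 in 90.0%, 77.8% and 88.8% of 3′ reads with A or G there in the SalB libraries, in 93.2%, 93.7% and 91.4% on high fat diet, and in 91.6%, 92.5% and 92.5% on normal diet. SalB replicate 2 was again the farthest from the rest. Of 3′ reads, 91.2% ± 3.12 with SalB, 95.2% ± 0.97 on high fat diet and 95.01% ± 0.48 on normal diet ran to the last base of the tail (SD, n = 3 each). Reads that ended at position 72, just before the tail, were few, and the part of all reads reaching 72 or the tail that had tail bases was 95.9% ± 1.18 with SalB, 99.2% ± 0.18 on high fat diet and 98.6% ± 0.22 on normal diet. The groups did not overlap in this measure in any of the 3 comparisons (exact permutation p = 0.1 each, the smallest possible).

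**Figure D3:**
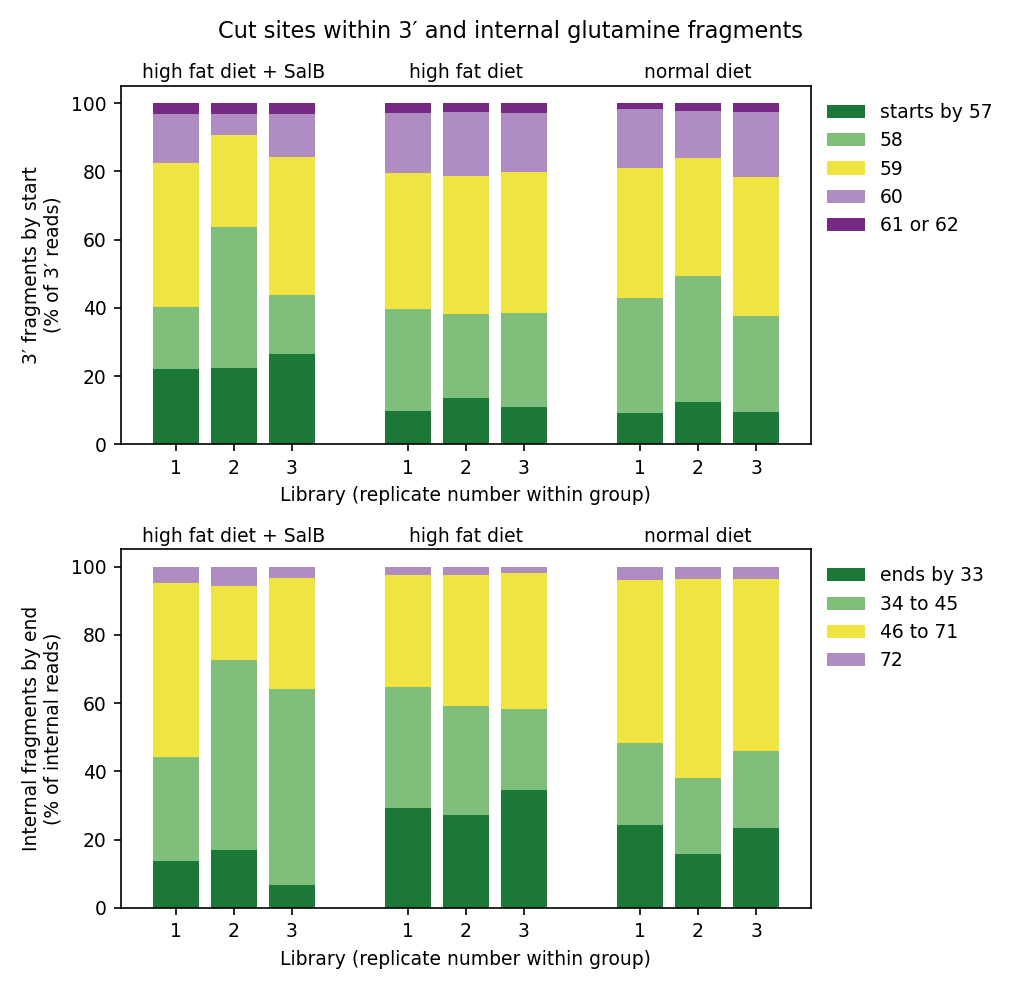
Stacked percentages for each library: above, where 3′ fragments start, and below, where internal fragments end, without the reads that equal a microRNA. Starts at or before 57 take 22.1% to 26.5% of 3′ reads in the SalB libraries, and internal ends at 34 to 45 take 55.7% and 57.5% of internal reads in SalB replicates 2 and 3 but 30.6% in replicate 1.

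Among the internal fragments, Gln-CTG/Gln-TTG 16-30 and 17-30, which run from the D loop into the anticodon arm, had the lowest fold changes with SalB against high fat diet. Like Gln-CTG/Gln-TTG 17-31, they reached the filter level in no SalB library. They were tested only through the diet libraries, where they are higher. Gln-CTG/Gln-TTG 16-30 had 28, 71 and 0 RPM in the SalB libraries, 608, 651 and 433 on high fat diet, and 507, 256 and 375 on normal diet. In reads this is 1, 3 and 0 against 27, 15 and 15 on high fat diet, so counting error is large, but the groups were far apart. It fell by 3.82 on the log2 scale (SE 0.678, limma-voom adjusted p = 0.00213, at most 0.0133 in 17 alternatives). Gln-CTG/Gln-TTG 17-30 had 56, 142 and 0 RPM with SalB against 383, 781 and 433 on high fat diet, and fell by 3.10 (limma-voom adjusted p = 0.0127, and 0.0622 without SalB replicate 3). Gln-CTG/Gln-TTG 17-31, 1 base longer at its end, had 194, 189 and 225 RPM with SalB, 698, 564 and 577 on high fat diet, and 563, 426 and 598 on normal diet. It fell by 1.57 (SE 0.398, limma-voom adjusted p = 0.0120, and 0.0601 without SalB replicate 2).

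Of the fragments that end in the T loop at position 54, Gln-CTG 27-54 and Gln-CTG/Gln-TTG 35-54 fell with SalB against high fat diet. Gln-CTG 34-54 did not pass in that comparison. Those that fell reached the filter level in no SalB library and were tested only through the diet libraries, where they are higher. Gln-CTG 27-54 had 0, 47 and 75 RPM with SalB, 293, 260 and 173 on high fat diet, and 478, 426 and 320 on normal diet, and its log2 fold change with SalB against high fat diet was -2.58 (SE 0.753, limma-voom adjusted p = 0.0219). That call was lost without SalB replicate 1 or without high fat diet replicate 1, with an adjusted p of up to 0.105 by limma-voom. Gln-CTG/Gln-TTG 35-54 had 250, 165 and 187 RPM with SalB, 405, 781 and 808 on high fat diet, and 929, 1151 and 1098 on normal diet. It fell by 1.599 (SE 0.469, limma-voom adjusted p = 0.0221), and the call was lost without any 1 of the SalB libraries and without high fat diet replicate 2 or 3 (limma-voom adjusted p of up to 0.110). Gln-CTG 34-54, which starts 1 base earlier and holds the whole anticodon, had 361, 449 and 750 RPM with SalB against 496, 607 and 549 on high fat diet, which overlap, and missed the threshold (limma-voom adjusted p = 0.760); the fold change, -0.17, turned to 0.025 without SalB replicate 2.

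Of the fragments that run from about the end of the D arm through the anticodon to position 41, Gln-CTG 25-41 rose and the others did not pass. It reached the filter level in the SalB libraries, where it is higher, and otherwise only in high fat diet replicate 1. Gln-CTG 25-41 had 472, 1015 and 1087 RPM with SalB, 383, 260 and 29 on high fat diet, and 169, 85 and 250 on normal diet, and rose by 2.22 on the log2 scale (SE 0.740, limma-voom adjusted p = 0.0373). This single higher call was lost in 9 of 18 alternatives (limma-voom adjusted p of up to 0.121), among them total-count scaling, the 2 groups alone, and every fit without SalB replicate 2 or 3 or without a high fat diet library. Gln-CTG 24-41 had 111, 2715 and 637 RPM with SalB against 360, 174 and 115 on high fat diet, and Gln-CTG 23-41 had 139, 1558 and 1350 against 496, 390 and 260. In both, SalB replicate 1 lay below every high fat diet library and replicates 2 and 3 above them all, and neither was called (limma-voom adjusted p = 0.322 and 0.450). Without SalB replicate 1, Gln-CTG 23-41 rose by 2.02 (limma-voom adjusted p = 0.0154, against up to 0.857 over 19 alternatives). The shares of internal reads that follow leave out the reads that equal a microRNA, which end at 39 or 40. Ends at 34 to 45 took 30.6%, 55.7% and 57.5% of internal reads with SalB, 35.4%, 31.97% and 23.5% on high fat diet, and 24.2%, 22.2% and 22.5% on normal diet. Ends by position 33 took 13.7%, 17.1% and 6.73% with SalB, 29.4%, 27.2% and 34.6% on high fat diet, and 24.2%, 15.8% and 23.5% on normal diet, with no overlap between SalB and high fat diet (exact permutation p = 0.1, the smallest possible). The high fat diet values did not overlap those of normal diet either (exact permutation p = 0.1), while SalB and normal diet overlapped (exact permutation p = 0.2).

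**Figure D4:**
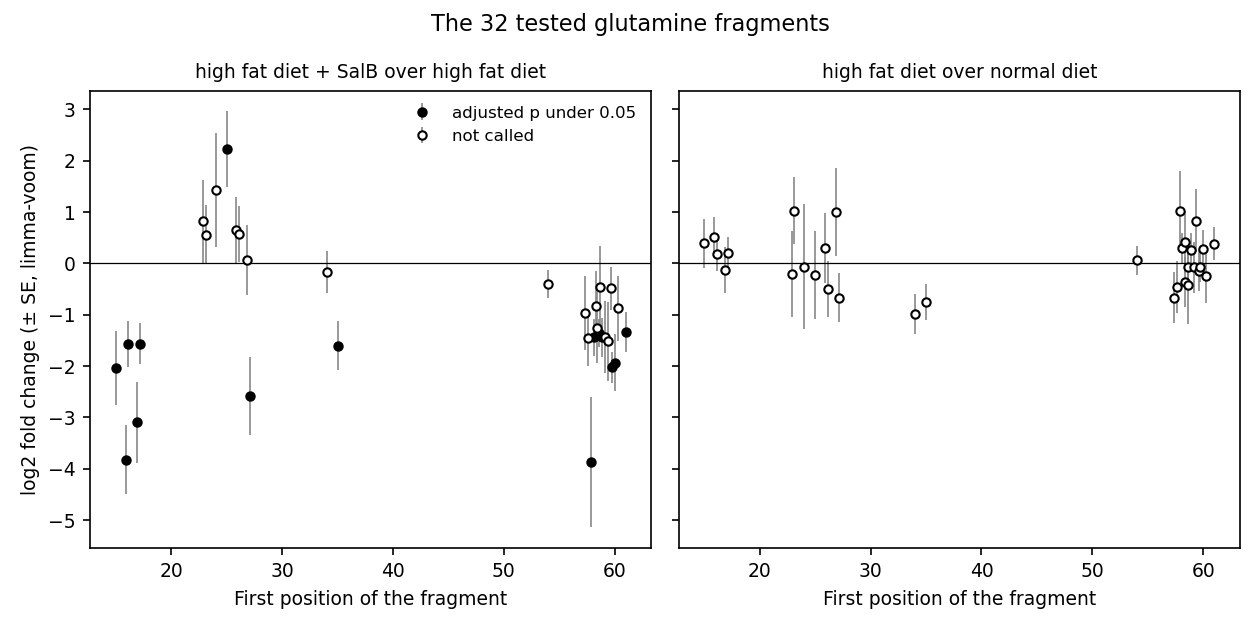
log2 fold change with its SE for each of the 32 tested Gln fragments by its first position, for high fat diet with SalB over high fat diet (left) and high fat diet over normal diet (right), with filled points at a limma-voom adjusted p under 0.05. On the left the fragments that start at 15 to 17 and at 58 to 61 lie below 0 and those that start at 23 to 26 above it, of which Gln-TTG 26-40 T35G (-0.05) and Gln-CTG 23-41 C41T (-0.21) turn below 0 with total-count scaling. On the right no point is filled.

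Variants with 1 substituted base were common. Without the reads that equal a microRNA, 25.2% of Gln reads carried 1 substitution, and in 13.7% of reads it lay at the read's last base. The last base A of the tail was replaced in 10.1% ± 5.20 of the 3′ reads that ended at 75 with SalB, 10.4% ± 0.24 on high fat diet and 8.25% ± 0.76 on normal diet (SD, n = 3 each). The variant A75G of Gln-CTG 59-75 fell by 1.44 on the log2 scale with SalB against high fat diet (SE 0.376, limma-voom adjusted p = 0.0138), close to the -1.36 of the unchanged fragment, though its call was lost without SalB replicate 2 or 3 (limma-voom adjusted p of up to 0.0606). Another variant, Gln-CTG 58-75 with A58C at its first base, was listed with 0, 0 and 150 RPM with SalB, 315, 564 and 491 on high fat diet, and 675, 469 and 70 on normal diet. It fell by 3.87 (SE 1.26, limma-voom adjusted p = 0.0347), and the call was lost without SalB replicate 1 or 2 or any high fat diet library (limma-voom adjusted p of up to 0.119). This variant reached the filter level in no SalB library, so it was tested only through the diet libraries.

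Inside reads, a few positions were substituted more often than the rest, some in the T loop and some near the 3′ end. Position 53 of the T loop was substituted in 4.95% of 1776 reads that held it away from their ends, and position 57, the T-loop adenosine, in 4.43% of 1783, where the median over 62 positions was 0.291%. Position 72, just before the tail, followed at 2.90% of 13468 reads, and its 391 substituted reads outnumber the 88 at position 53 and the 79 at position 57, since far more reads cover it. Counting all reads that cover position 57 without the reads that equal a microRNA, 27 of 698 with SalB, 27 of 555 on high fat diet and 52 of 715 on normal diet were substituted there. With SalB these were 11 A57C, 12 A57G and 4 A57T, on high fat diet 2 A57C, 8 A57G and 17 A57T, and on normal diet 8 A57C, 23 A57G and 21 A57T. The share was 0%, 4.85% and 5.38% in the SalB libraries, 5.26%, 5.30% and 4.10% on high fat diet, and 8.70%, 12.6% and 4.64% on normal diet. SalB replicate 1 had 0 of 156 reads, which allows a share of up to 1.92%, and normal diet replicates 1 and 2 were the high values while the other 6 libraries lay between 4.10% and 5.38%. The normal diet mean was 8.64% ± 3.97 (SD, n = 3), and with 130 to 412 covering reads per library smaller differences were not detectable at this depth. The mean shares, 3.41% with SalB, 4.89% on high fat diet and 8.64% on normal diet, compare with 10.9%, 34.3% and 42.7% for glycine tRNAs, the highest of 16 amino acids on high fat diet, where tyrosine and then Gln followed.

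Fragments from the 5′ end were rare in every library. Of 20693 Gln reads 112 began at the first base, or 0.54% ± 0.32 of Gln reads with SalB, 0.60% ± 0.20 on high fat diet and 0.63% ± 0.13 on normal diet (SD, n = 3 each). Most of them (72 reads) were 28 to 36 bases long and so ended in or near the anticodon loop, and 33 were of 24 bases or fewer. The most frequent is shown because it gives the main 5′ cut, a few bases before the anticodon.
Gln-CTG 1-30: ggttccatggtgtaatggttagcactctgg
It had 0, 6 and 3 reads with SalB, 3, 3 and 2 on high fat diet and 4, 4 and 12 on normal diet. None of the 5′ fragments had enough reads for a test of its own. For their sum, SalB against high fat diet gave -1.25 on the log2 scale (SE 0.465, limma-voom adjusted p = 0.0687), which missed the threshold but passed without high fat diet replicate 1 or SalB replicate 3 (limma-voom adjusted p = 0.0459 and 0.0445). The 5′ sum fell by 1.49 against normal diet (limma-voom adjusted p = 0.0239), a call lost in 6 of 18 alternatives (limma-voom adjusted p of up to 0.0820), among them those without SalB replicate 2 or without any normal diet library. On high fat diet the 5′ share of Gln had rank 16 of 20 amino acids from the highest, where it was 44.97% for aspartate and 0.94% for alanine.

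The 2 anticodon families differed in what their own reads were. Of Gln reads, those on Gln-CTG only were 75.8%, 67.4% and 79.2% with SalB, 80.4%, 79.9% and 77.5% on high fat diet, and 79.9%, 81.2% and 78.7% on normal diet. Gln-CTG fell by 0.98 on the log2 scale with SalB against high fat diet (SE 0.234, limma-voom adjusted p = 0.0156), among 103 family sums of which 26.2% passed. This call was lost without any 1 high fat diet library, with limma-voom adjusted p of 0.0514, 0.0653 and 0.0552 without replicates 1, 2 and 3 (0.000446 to 0.0653 over 20 alternatives). Against normal diet Gln-CTG fell by 1.10 (limma-voom adjusted p = 0.00766), where 26.2% of the sums passed. Reads shared by both families had a fold change of -0.95 (SE 0.365) and were not called (limma-voom adjusted p = 0.0820). Without SalB replicate 2 they fell by 1.40 (limma-voom adjusted p = 0.000446, against up to 0.196 over 20 alternatives), and they passed in 5 other alternatives of scaling, filter or precursor reads. High fat diet against normal diet gave -0.12 for Gln-CTG and -0.03 for the shared reads, with 0% of the sums passing.

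Gln-TTG reads were 8.12%, 12% and 8.06% of Gln reads with SalB, 4.24%, 3.76% and 3.90% on high fat diet, and 3.52%, 4.29% and 5.06% on normal diet, and their log2 fold change with SalB against high fat diet was 0.31 (SE 0.374, limma-voom adjusted p = 0.561), not called. Without SalB replicate 2 it turned to -0.16, and the value against normal diet, 0.12 with all libraries, to -0.33, neither called (limma-voom adjusted p = 0.617 and 0.269). Most of these reads equal a microRNA. Of the 1217 reads, 905 (74.4%, from 3 sequences) lie on positions 26 to 40 of Gln-TTG-4-1 with the substitution T35G and are identical to a stretch within the start of mmu-miR-378c (bases 1 to 15 of 21, RefSeq, GRCm38.p6 chromosome 14, 46954905 to 46954925, minus strand). One of the 3 also equals the start of mmu-miR-378b (chromosome 11, 88352839 to 88352858, plus strand), and other members of that microRNA family were not analysed here. For a read of 14 or 15 bases the tRNA and the microRNA cannot be told apart, and the tRNA alignment needs 1 mismatch where the microRNA needs none. The larger of the 3, Gln-TTG 26-40 T35G, had 833, 4674 and 1125 RPM with SalB, 1306, 1128 and 924 on high fat diet, and 1548, 1322 and 1877 on normal diet, so that SalB replicate 2 was the one high value. It was not called (log2 fold change 0.57, limma-voom adjusted p = 0.427), and without SalB replicate 2 the fold change was -0.09. The 312 other Gln-TTG reads were 3.13% ± 0.82 of the Gln reads without microRNA matches with SalB, 1.22% ± 0.48 on high fat diet and 1.14% ± 0.14 on normal diet (SD, n = 3 each), with no overlap between SalB and the others (exact permutation p = 0.1, the smallest possible). The tested fragments that match were not called. Leaving them out of the count therefore could not change it, at 14 fragments lower and 1 higher with SalB against high fat diet.

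Gln stood among a group of tRNAs that were lower with SalB. Of 22 nuclear amino acid sums, 7 fell and 1 rose with SalB against high fat diet, and the median log2 fold change was -0.32. Only tyrosine (-2.32) had a lower value than Gln (-1.08), and arginine followed at -1.03 (SE 0.215) within the SE of Gln. The lower level of 3′ fragments was not particular to Gln: of 20 nuclear 3′ sums, 10 fell and 1 rose, with a median of -1.002, and Gln followed at -1.67 after tyrosine (-2.58) and glutamate (-1.95). The 3′ fragments were 27.97% ± 4.30 of all nuclear mature reads with SalB, 46.9% ± 3.32 on high fat diet and 47.9% ± 3.47 on normal diet (SD, n = 3 each). Within these 3′ reads Gln took 4.82%, 9.21% and 5.55% with SalB, 8.80%, 7.97% and 8.86% on high fat diet, and 9.25%, 6.78% and 9.56% on normal diet, so SalB replicate 2 lay above every high fat diet library and replicates 1 and 3 below them all. Of the 20 amino acids with enough reads, the 3′ share was lower by the most for tryptophan, with a difference of -45.1 percentage points, and Gln had the sixth lowest difference, at -22.6 points.

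**Figure D5:**
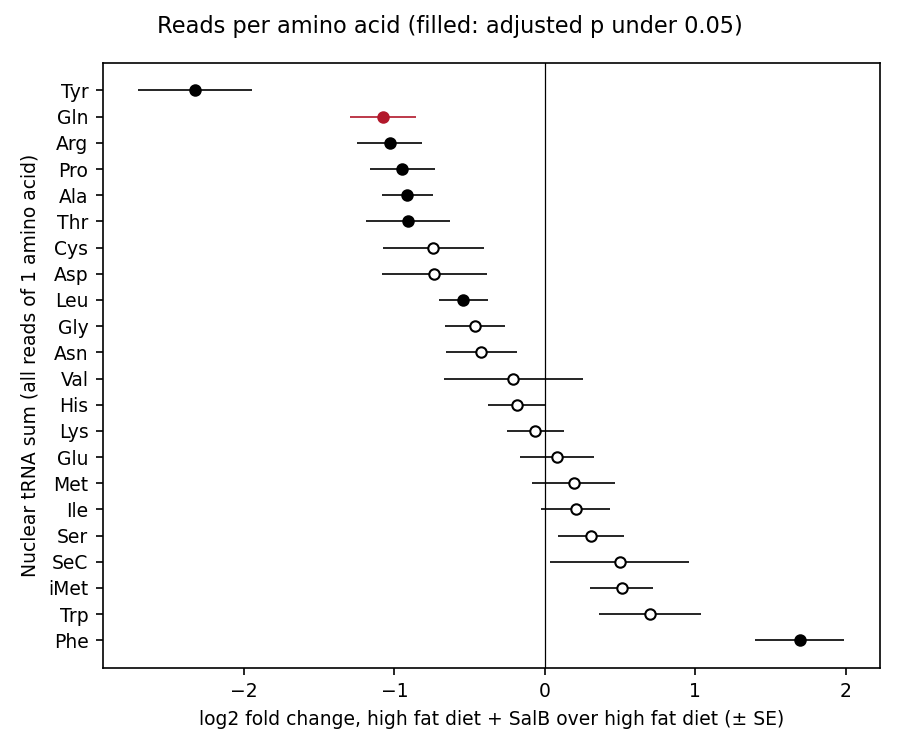
log2 fold change with its SE for the summed reads of each of 22 nuclear amino acids, high fat diet with SalB over high fat diet, sorted from the lowest at the top, with Gln in red and filled points at a limma-voom adjusted p under 0.05. Gln is second from the top at -1.08, after tyrosine at -2.32.

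No tested Gln fragment passed between high fat diet and normal diet. The groups did not overlap for 10 of the 32, against 24.1% of all 733. None of the 32 passed in that comparison, nor did any of the 733 (0%), by limma-voom at 0.05, and at an unadjusted p under 0.05 there were 1 Gln fragment and 87 in all. With no filter on low counts 4 Gln fragments passed (2 higher and 2 lower), and limma on log2 values gave 0. The single fragment was Gln-CTG 34-54, with 496, 607 and 549 RPM on high fat diet against 1154, 1621 and 751 on normal diet (log2 fold change -0.99, SE 0.390, limma-voom adjusted p = 0.366). Without the reads that equal a microRNA, the share of internal reads that ended at 54 was 20.3%, 25.0% and 24.1% on high fat diet and 35.1%, 45.05% and 33.51% on normal diet, which do not overlap (exact permutation p = 0.1, the smallest possible, Benjamini-Hochberg 0.216). With SalB it was 20.2%, 4.83% and 15%.

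The SalB libraries set against normal diet were the same as those set against high fat diet, so these fold changes are no independent test. Of the 32 fragments 13 fell and 1 rose, with a median of -1.17, where 39.0% of all 733 passed. The fragment that rose was Gln-CTG 25-41. Its call was lost without any 1 normal diet library or without SalB replicate 3 (limma-voom adjusted p of up to 0.0811). The groups did not overlap for 18 of the 32, where 50.3% of all 733 had no overlap. The count was 7 without SalB replicate 3. Gln-CTG 60-75 fell by 2.10 and Gln-CTG 59-75 by 1.43 (limma-voom adjusted p = 0.000516 and 0.00239). Gln-CTG 58-75 fell by 1.90 (limma-voom adjusted p = 0.0149), a call lost without SalB replicate 1 or 3 (limma-voom adjusted p of up to 0.0959). Gln-CTG/Gln-TTG 58-75 was not called with all libraries but fell by 2.16 without SalB replicate 2 (limma-voom adjusted p = 0.0163). The call of the A75G variant of Gln-CTG 59-75 was lost without SalB replicate 2 or 3 or normal diet replicate 1 or 2 (limma-voom adjusted p of up to 0.123). Gln-CTG 27-54 fell by 3.25 (limma-voom adjusted p = 0.00493) and Gln-CTG/Gln-TTG 35-54 by 2.34 (limma-voom adjusted p = 0.00273). Neither reached the filter level in any SalB library. Gln-CTG 34-54 also passed as lower against normal diet. That call was lost without SalB replicate 1 or 2, normal diet replicate 1 or 2, or high fat diet replicate 3 (limma-voom adjusted p of up to 0.160).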

How the data were processed

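RNA of 9 serum libraries was ligated to adapters, copied, amplified and sequenced on a NextSeq 500, per the labels' protocols. The submitters' processing notes name FastQC, cutadapt and Bowtie and the build mm10, without versions or roles. The deposited alignments hold distinct sequences of 14 to 40 bases with at most 1 mismatch, and the number of reads of each, a count, is part of its read name. PCR reads carry no molecular identifiers, so intervals cover counting error only.

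Each sequence was counted once and assigned to Gln where all its alignments lay on mature Gln-CTG or Gln-TTG references, which were rebuilt from the alignments. Fragments that reached, in 3 or more libraries, the level of 10 reads in a library of median size (44415 reads), with 15 reads in all, were tested by limma-voom (limma 3.58.1, R 4.3.3) with trimmed-mean scaling, in 1 fit over the 9 libraries, with Benjamini-Hochberg adjustment over 733 fragments, 103 family sums, 56 amino acid sums or 93 sums by origin and a threshold of 0.05. The procedure was also run on simulated counts with the same dispersion for all fragments and libraries. The spread between these libraries is uneven, so that run does not give the error rate on these data. Shares were compared by two-sided exact permutation over libraries (scipy 1.17.1), and where a library had 0 reads the limit is 3 reads of its total. Named fragments were the 12 with the highest mean RPM, up to 6 called ones per comparison and direction with the largest absolute log2 fold change, and, where fewer than 3 were called, the 3 with the smallest p. Gln-CTG/Gln-TTG 17-31, Gln-CTG 24-41 and Gln-CTG 1-30 fall outside this rule and were chosen after their values were seen. The members and lists were chosen with earlier results of these data known. The alternatives were scaling, filters, merged variants, read length, the microRNA-matching and precursor reads, the 2 groups alone, and leaving out each library. No genome was used here.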

Additional observations from a re-analysis of the deposited data

How the results depend on the processing

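The fall of the Gln 3′ sum with SalB, against either diet group, passed under all 19 alternatives, and that of the Gln sum against normal diet under all 20. For the rest the cause was not tested. The number of Gln fragments called was 60 with no filter and 9 with a stricter one for SalB against high fat diet, 68 and 9 for SalB against normal diet, and 4 with no filter for high fat diet against normal diet. With 1 library left out it ran from 7 to 15 and, against normal diet, from 7 to 14. The labels do not say whether equal replicate numbers pair libraries. Correlations of same-numbered libraries ran from -0.30 to 0.16 over 9 pairs, too few to settle it. With the replicate number as a block, 14, 14 and 0 fragments were called for SalB against high fat diet, SalB against normal diet and high fat diet against normal diet. The Gln sum of SalB against high fat diet was then -1.08 (limma-voom adjusted p = 0.00864).

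Reads shared by both families passed for SalB against high fat diet with RLE size factors (-1.06), total counts (-1.32), the stricter filter (-1.04), no Leu-CAG-3-1 precursor reads (-1.04) and precursors summed with mature tRNAs (-1.07). Against normal diet they passed with these 5 (-1.09, -1.27, -0.996, -1.02 and -1.06) and with no filter (-1.23). Without SalB replicate 2 they also passed against normal diet (-1.38, limma-voom adjusted p = 0.000371). For high fat diet against normal diet their value turned to 0.050 with total counts, 0.048 with the stricter filter, 0.018 with the 2 groups alone, 0.020 without the precursor reads and 0.012 with precursors summed. The Gln-TTG sum turned to -0.063 (SalB against high fat diet) and -0.19 (against normal diet) with total counts, -0.16 (SalB against normal diet) with no filter, and 0.13 (high fat diet against normal diet) with reads of 16 bases or more, which also turned the 3′ sum of the diets to 0.022. The 5′ sum of SalB against normal diet was not called with the 2 groups alone (-1.46) or with reads of 16 bases or more (-1.29).

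Of the uncalled fragments, total counts turned SalB against high fat diet for Gln-CTG 23-41 C41T (-0.21) and Gln-TTG 26-40 T35G (-0.055), and high fat diet against normal diet for Gln-CTG 59-75 (0.033), Gln-CTG 60-75 (0.032) and Gln-CTG/Gln-TTG 17-30 (0.0028). High fat diet against normal diet turned for Gln-CTG 25-41 with the block (0.11) and limma on log2 values (0.053), and for Gln-CTG 54-75 with no filter (-0.10). Gln-TTG 26-40 T35G turned for SalB against normal diet with total counts (-0.46), no filter (-0.25), the 2 groups alone (-0.030) and no Leu-CAG-3-1 precursor reads (-0.030). The Gln share of tRNA reads differed by -2.11 points (SalB against high fat diet) and -2.51 points (against normal diet) over reads with no mismatch, and the 3′ share by -7.74 and -5.72 points over distinct sequences.

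With 1 library left out, SalB against high fat diet ran from -1.39 to -0.81 for Gln, -1.22 to -0.78 for Gln-CTG, -0.16 to 0.63 for Gln-TTG, -1.40 to -0.68 for shared reads, -1.64 to -1.03 for 5′ and -0.45 to 0.032 for internal reads. SalB against normal diet ran from -0.33 to 0.46 for Gln-TTG, -1.38 to -0.69 for shared and -1.85 to -1.29 for 5′ reads. High fat diet against normal diet ran from -0.19 to 0.081 for shared, -0.18 to 0.0030 for 3′ and -0.45 to 0.12 for 5′ reads. Among fragments, SalB against high fat diet ran from -0.30 to 0.15 for Gln-CTG 34-54, -1.73 to 0.26 for Gln-CTG/Gln-TTG 58-75, -0.016 to 1.29 for Gln-TTG 26-39 T35G and -0.087 to 1.13 for Gln-TTG 26-40 T35G. SalB against normal diet ran from -0.0069 to 1.84 for Gln-CTG 23-41 and -0.60 to 0.65 for Gln-TTG 26-40 T35G. High fat diet against normal diet ran from -0.59 to 0.19 for Gln-CTG 23-41, -1.04 to 0.80 for Gln-CTG 25-41, -0.49 to 1.92 for Gln-CTG 58-75 A58C, -0.26 to 0.016 for Gln-CTG 59-75, -0.25 to 0.019 for Gln-CTG 60-75, -0.038 to 0.71 for Gln-CTG/Gln-TTG 15-31, -0.38 to 0.074 for Gln-CTG/Gln-TTG 17-30 and -0.19 to 0.88 for Gln-TTG 26-39 T35G. Depth limits single fragments: 1 read was worth 13.9 to 43.4 RPM.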

Other observations

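Reads on Gln tRNAs outside the rule were few in every library. Reads on Gln precursor references numbered 32, 54 and 10 in the SalB libraries, 22, 12 and 14 in the high fat diet libraries, and 15, 9 and 17 in the normal diet libraries. Mitochondrial tRNA-Gln took 0.0369%, 0.0365% and 0.0424% of tRNA reads with SalB, 0.0559%, 0.0284% and 0.0518% on high fat diet, and 0.0233%, 0.0451% and 0.0232% on normal diet, and the groups overlapped.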
